A study of Mus musculus with 39 samples.

Results

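The interleukin-1 family and inflammasome genes described here are 10 genes of the count table: the cytokine genes Il1a, Il1b and Il18, the antagonist gene Il1rn, the sensor genes Nlrp3, Nlrc4 and Naip5, the adaptor gene Pycard, the protease gene Casp1 and the pore gene Gsdmd. They were chosen by symbol, and 10 of the 53379 genes in the table matched, each on 1 row. All 10 passed the filter on low counts that left 22061 genes for testing. RNA was sequenced from brain macrophages sorted from C57Bl/6 mouse embryos of time-mated females, with 20 libraries of border-associated macrophages (BAM), found in the meninges, perivascular spaces and choroid plexus, and 19 of microglia, the macrophages of the parenchyma. The BAM groups held 4, 3, 3, 3, 3 and 4 libraries at E10.5, E11.5, E12.5, E14.5, E16.5 and E18.5, and the microglia groups held 4, 3, 3, 2, 3 and 4. No treatment or engineered allele is given in the labels for any group. The labels name neither the surface markers of the sort nor the litter of a sample, so every p-value measures the spread between these samples, which may be technical in part.

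Interleukin-1 alpha and interleukin-1 beta act on the same receptor, and the product of Il1rn occupies that receptor without starting a signal. Interleukin-1 beta and interleukin-18 are made as inactive precursors. They are cut by caspase-1 (Casp1) after a sensor protein and the adaptor ASC (Pycard) have assembled an inflammasome, and caspase-1 also cuts gasdermin D (Gsdmd), whose fragment forms pores in the cell membrane. NLRP3 responds to many kinds of cell damage, whereas NLRC4 works with NAIP proteins, of which mouse NAIP5 binds bacterial flagellin. Transcription of Il1b in macrophages is strongly induced by NF-kappaB signalling, so that handling of cells during isolation is a known concern for this gene in microglia.

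The promoters of the 4 genes on which the results turn are shown for reference, since 2 of them were lower and 2 were higher in BAM. Each line is the 250 bases before a transcription start from RefSeq (GRCm38.p6), written 5′ to 3′ on the gene's own strand. Capitals mark matches on either strand to the motifs GAGGAA (the PU.1 core), TGANTCA (AP-1), TTGCNNAA (C/EBP) and, for NF-kappaB, GGGNN followed directly by TTTCC. The Il1a window lies at chr2:129309973-129310222 (minus strand), the Il1b window at chr2:129371140-129371389 (minus), the Nlrc4 window at chr17:74459109-74459358 (minus) and the Il18 window at chr9:50554450-50554699 (plus).
Il1a: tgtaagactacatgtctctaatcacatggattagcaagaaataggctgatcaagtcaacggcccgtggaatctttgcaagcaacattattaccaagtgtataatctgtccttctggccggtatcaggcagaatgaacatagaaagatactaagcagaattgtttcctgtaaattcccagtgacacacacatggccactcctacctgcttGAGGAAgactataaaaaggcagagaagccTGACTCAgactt
Il1b: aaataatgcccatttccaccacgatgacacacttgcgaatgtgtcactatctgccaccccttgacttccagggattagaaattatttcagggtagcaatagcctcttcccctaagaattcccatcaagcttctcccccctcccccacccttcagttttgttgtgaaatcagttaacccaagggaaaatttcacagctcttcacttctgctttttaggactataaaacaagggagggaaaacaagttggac
Nlrc4: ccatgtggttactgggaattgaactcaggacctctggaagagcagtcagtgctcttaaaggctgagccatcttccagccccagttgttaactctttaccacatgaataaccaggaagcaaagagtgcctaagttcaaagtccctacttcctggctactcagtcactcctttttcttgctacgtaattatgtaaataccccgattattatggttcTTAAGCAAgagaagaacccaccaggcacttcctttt
Il18: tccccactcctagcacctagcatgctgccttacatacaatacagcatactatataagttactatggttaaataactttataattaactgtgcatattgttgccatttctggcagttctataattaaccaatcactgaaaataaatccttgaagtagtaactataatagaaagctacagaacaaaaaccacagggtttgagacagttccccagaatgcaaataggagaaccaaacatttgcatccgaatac

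The Il1a window held a PU.1 core 41 bases and an AP-1 match 12 bases before the start. The Nlrc4 window held a C/EBP match 36 bases before the start, and the Il1b and Il18 windows held none of the 4 motifs. Among 32851 windows of this length in the table, 23.3% held the PU.1 core, 6.75% the AP-1 motif, 9.56% the C/EBP motif and 1.41% the NF-kappaB motif. Of the 10 genes, 9 matched the table, in 12 windows. The matches describe letters, and a window without a match says nothing of sites elsewhere.

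The genes lie on 7 chromosomes, with coordinates from GRCm38. Il1a (ENSMUSG00000027399, chr2:129299610-129309972, minus strand) and Il1b (ENSMUSG00000027398, chr2:129364570-129371139, minus strand) are neighbours, 54598 bases apart. Nlrc4 (ENSMUSG00000039193) lies at chr17:74426295-74459108 on the minus strand and Il18 (ENSMUSG00000039217) at chr9:50554827-50581840 on the plus strand. Antisense genes overlap 222 of the 1974 exonic bases of Il1a, 25 of the 1907 of Il1b and 485 of the 3800 of Pycard. The sources do not say whether counting used strand, so reads from each of these genes and its antisense partner cannot be told apart.

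The libraries held 10.7 to 47.2 M counts (median 22.4 M). Library names fall into a series R10 (16 libraries, 20.6 to 47.2 M), which covers E10.5, E11.5 and replicate 1 of both E18.5 groups, and a series R8 (the other 23 libraries, 10.7 to 24.3 M). BAM and microglia of 1 stage thus share their series, whereas a step between E11.5 and E12.5 is also a step between series. Over the mean of the stages, 8 of 8 BAM markers were higher in BAM and 8 of 8 microglia markers were lower. Of all tested genes 28.2% differed in that comparison. Mrc1 had 3178 to 9557 CPM (counts scaled to a common library total) in BAM and 226 to 2284 CPM in microglia. The marker lists were chosen with earlier results of these data known, and the labels do not name the sort markers. These counts therefore describe the populations and do not test their labels. At E10.5 the summed microglia markers were still low, at 398 to 591 CPM in BAM and 1014 to 1772 CPM in microglia.

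Replicate 3 of each E18.5 group stood apart in genes of activation, before any result is read. The summed CPM of 8 other NF-kappaB-driven cytokine genes was 421 in BAM E18.5 replicate 3, against 148 to 181 in the other 3 BAM libraries of that stage. It was 1946 in microglia E18.5 replicate 3, against 535 to 678 in the other 3 microglia libraries. Immediate early and heat shock genes summed to 8133 CPM in that BAM library, against 5945 to 6425 in the others of its group, and to 14036 CPM in that microglia library, against 7454 to 10606. Where leaving both out ended or gained a call at E18.5, or moved a called value by over 1.5 times, the value without them is given beside the result.

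Over the mean of the 6 stages, all 10 genes differed between BAM and microglia, 3 higher and 7 lower in BAM, by the quasi-likelihood test of edgeR with Benjamini-Hochberg adjustment over all tested genes. Of all tested genes 28.2% passed the same test. Since the 10 genes were chosen with earlier results known, such shares, here and at single stages, describe them and do not test the set. The median log2 fold change of the 10 was -0.67, against -0.02 over all tested genes. Il1a and Il1b, the interleukin-1 receptor agonists, were lowest in BAM relative to microglia (log2 -4.81 ± 0.28, adjusted p = 3.24e-16, and -4.70 ± 0.42, adjusted p = 1.60e-11; ± is the SE of a log2 fold change). Nlrc4 and Il18 were higher in BAM (2.62 ± 0.18, adjusted p = 3.95e-14, and 1.44 ± 0.13, adjusted p = 2.32e-11). The differences of the shared machinery were smaller, at 0.29 ± 0.09 for Casp1, -0.35 ± 0.06 for Pycard and -0.46 ± 0.06 for Gsdmd. The sorted populations were measured in bulk, and fewer cells that express a gene and less RNA per cell cannot be told apart.

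**Figure D1:**
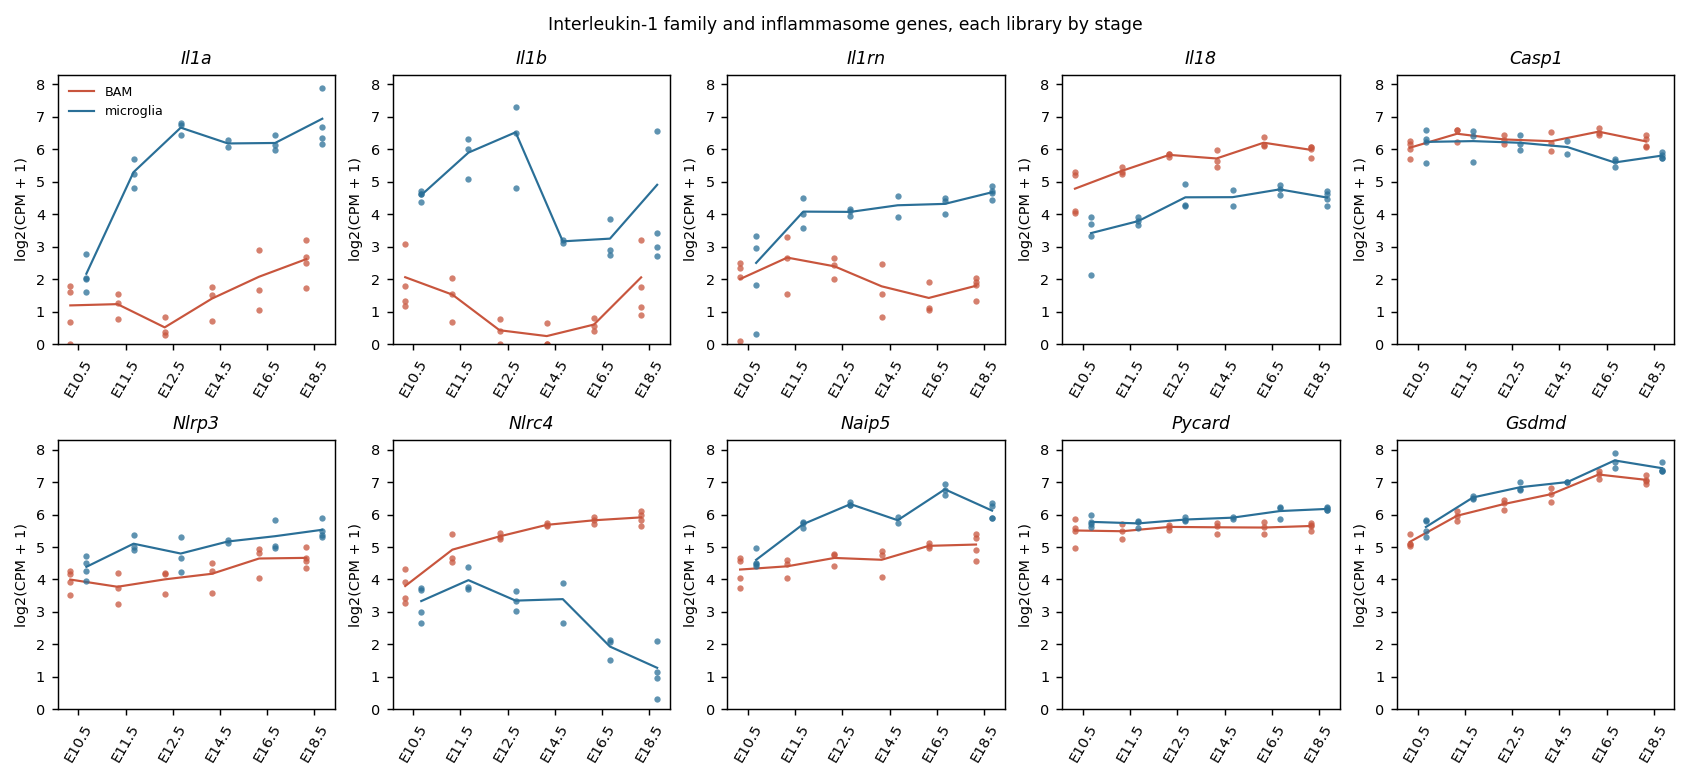
Level of each of the 10 genes by embryonic stage, as log2(CPM + 1), where each point is 1 library and each line joins the group means, with BAM left of microglia. Il1a and Il1b are low in BAM and high in microglia, Nlrc4 parts in the opposite direction after E11.5, and Il18 is higher in BAM at all 6 stages.

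Taken stage by stage, the number of the 10 genes that differed between BAM and microglia was 3 at E10.5 and 9 at E18.5. At E10.5 the 3 called genes (1 higher, 2 lower in BAM) stood beside 4.48% of all tested genes. At E11.5 there were 6 (1 higher, 5 lower) beside 6.66% of all genes, and at E12.5 there were 6 (2 higher, 4 lower) beside 8.54%. At E14.5 there were 6 (2 higher, 4 lower) beside 7.18%, at E16.5 there were 8 (3 higher, 5 lower) beside 13.8%, and at E18.5 there were 9 (2 higher, 7 lower) beside 15.4%. Il1b and Il18 were called at all 6 stages, Il1a and Naip5 at 5, Nlrc4 and Gsdmd at 4, Il1rn at 3, Nlrp3 and Pycard at 2, and Casp1 at 1. The count at E10.5 was 1 when its groups were fitted alone, and the count at E14.5 was 3 without microglia E14.5 replicate 1. The paragraphs below also say where the ranges of 2 groups overlap or are separate. Groups of 2 to 4 libraries can be separate by chance, and the share of all genes with separate ranges was not computed.

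**Figure D2:**
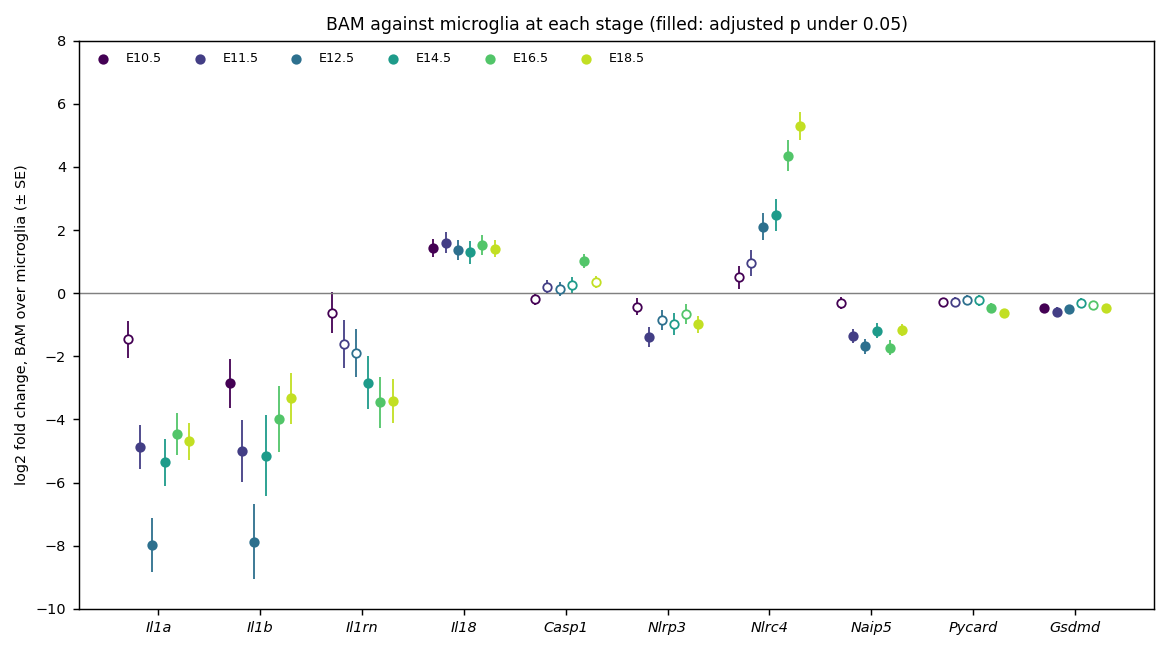
Log2 fold change of BAM over microglia at each stage for the 10 genes, with bars for the SE from the edgeR fit; filled points passed an adjusted p of 0.05 and open points did not. The Nlrc4 difference is 0.50 at E10.5 and 5.29 at E18.5, that of Il18 stays between 1.30 and 1.60, and those of Il1a and Il1b are deepest at E12.5.

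Il1a, whose product is released by damaged cells as an alarm signal, averaged 1.28 ± 1.17 CPM in BAM and 3.49 ± 1.61 CPM in microglia at E10.5 (SD, n = 4 each) and was lower in BAM at each later stage. At E10.5 the libraries had 0.611, 2.47, 0 and 2.05 CPM in BAM, against 2.05, 3.08, 5.80 and 3.02 CPM in microglia. At E11.5 they had 1.94, 0.717 and 1.38 CPM in BAM, against 51.1, 36.8 and 26.8 CPM in microglia. At E12.5 they had 0.773, 0.307 and 0.205 CPM in BAM, against 106, 110 and 85.3 CPM in microglia. The groups overlapped at E10.5 and were separate at both later stages, and the BAM library at 0 allows up to 0.117 CPM (3 counts, counting error only). At E14.5 Il1a had 1.86, 2.40 and 0.653 CPM in BAM, against 77.2 and 65.6 CPM in microglia. At E16.5 it had 6.40, 2.18 and 1.05 CPM in BAM, against 69.5, 84.8 and 62.1 CPM in microglia. The E18.5 libraries had 2.28, 4.61, 8.22 and 5.40 CPM in BAM, against 102, 69.8, 234 and 80.9 CPM in microglia. Every BAM library lay below every microglia library of its stage from E11.5 to E18.5, and the highest value in each E18.5 group was that of replicate 3. The log2 fold change was -1.47 ± 0.58 at E10.5 (adjusted p = 0.159, and 0.0427 without the filter), -4.88 ± 0.70 at E11.5, -7.98 ± 0.85 at E12.5 and -4.69 ± 0.58 at E18.5 (adjusted p = 6.72e-06, 8.88e-09 and 9.82e-08). Without replicate 3 in both E18.5 groups, the E18.5 value was -4.45 (adjusted p = 3.71e-06).

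Il1b, the inflammasome-dependent agonist, was lower in BAM at all 6 stages and spread widely within some groups. At E10.5 it had 7.44, 1.52, 1.24 and 2.47 CPM in BAM, against 23.5, 25.1, 19.9 and 23.6 CPM in microglia. At E11.5 it had 3.10, 1.91 and 0.609 CPM in BAM, against 79.4, 63.2 and 33.0 CPM in microglia. At E12.5 it had 0, 0.702 and 0.329 CPM in BAM, against 26.8, 156 and 89.8 CPM in microglia. The groups did not overlap at these stages, and microglia E12.5 spanned a wide range. At E14.5 Il1b had 0, 0.558 and 0 CPM in BAM, against 7.63 and 8.29 CPM in microglia. At E16.5 it had 0.740, 0.474 and 0.336 CPM in BAM, against 5.73, 13.3 and 6.45 CPM in microglia. At E18.5 it had 1.21, 0.869, 8.13 and 2.40 CPM in BAM, against 7.01, 5.52, 93.5 and 9.77 CPM in microglia. The E18.5 ranges overlapped, since BAM replicate 3 lay above 2 of the 4 microglia libraries. The BAM libraries listed at 0 allow up to 0.196 to 0.223 CPM (3 counts each).

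The Il1b difference was -2.85 ± 0.78 on the log2 scale at E10.5 (adjusted p = 0.0253), -7.88 ± 1.19 at E12.5 (adjusted p = 7.47e-06) and -3.34 ± 0.80 at E18.5 (adjusted p = 0.00238). At E10.5 the call was lost without BAM replicate 2, 3 or 4 (adjusted p = 0.0755 to 0.0905). Without replicate 3 in both E18.5 groups the difference there was -2.41 (adjusted p = 0.0184), and without the microglia library alone it was -1.34 (adjusted p = 0.218). Beside Il1b, the high microglia E12.5 library (replicate 2, 156 CPM) also had 57.4 CPM of neutrophil markers other than Csf3r, 48.6 of it Mpo, against 0.986 and 4.93 CPM in the other 2. The same sum was 1.92 to 5.39 CPM in BAM and 34.9 to 89.4 CPM in microglia at E10.5, nearly all of it Mpo in microglia, while S100a8 and S100a9, the defining neutrophil genes, summed to at most 0.895 CPM in any of these libraries. The part of such cells in the Il1b level was not tested, and the E12.5 difference was -7.21 (adjusted p = 5.18e-05) without that library.

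**Figure D3:**
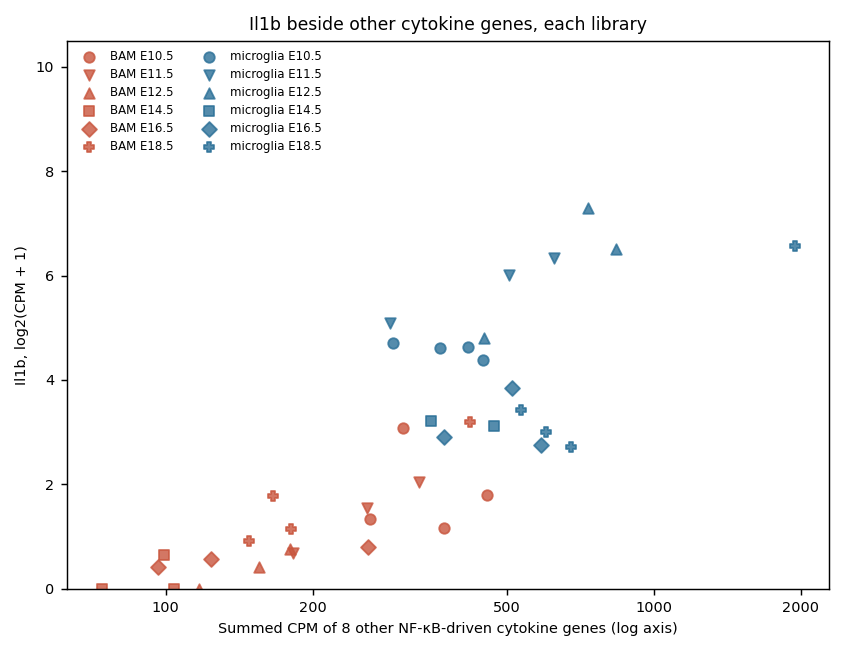
Il1b in each library, as log2(CPM + 1), against the summed CPM of 8 other NF-kappaB-driven cytokine genes on a log axis, with colour for population and symbol for stage. Microglia E18.5 replicate 3 lies far to the right, at 1946 CPM of these genes, and the microglia E12.5 libraries with the most Il1b also lie to the right.

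Il1rn, the receptor antagonist, passed the test from E14.5 onward, with no call at the 3 earlier stages. At E10.5 it had 4.69, 3.17, 0.0778 and 4.09 CPM in BAM, against 9.13, 6.73, 2.52 and 0.238 CPM in microglia. At E18.5 it had 2.77, 1.52, 3.09 and 2.5 CPM in BAM, against 28.2, 20.7, 24.3 and 25.0 CPM in microglia. The groups overlapped at E10.5 and did not overlap at any later stage. The difference was -0.62 ± 0.65 at E10.5 (adjusted p = 0.756), -1.61 ± 0.75 at E11.5 (0.235) and -1.90 ± 0.76 at E12.5 (0.144). It passed the test at E14.5 (-2.84 ± 0.84, adjusted p = 0.0306), E16.5 (-3.46 ± 0.82, 0.00247) and E18.5 (-3.42 ± 0.70, 0.000415). A change of the difference with stage did not pass as an interaction. It was -1.28 ± 0.99 at E12.5 against E10.5 (adjusted p = 0.698). At E18.5 against E12.5 it was -1.52 ± 0.99 (0.626, and 0.0373 with the compared groups alone). The E14.5 call was lost without any of 4 of its 5 libraries (adjusted p = 0.064 to 0.218) and with adjacent library numbers as a block (0.108).

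Il18 was the cytokine gene of the set that was higher in BAM, by 1.30 to 1.60 on the log2 scale. At E10.5 it had 15.4, 16, 36.2 and 38.7 CPM in BAM, against 3.33, 9.09, 12.1 and 14.2 CPM in microglia. At E12.5 it had 57.2, 57.1 and 52.8 CPM in BAM, against 18.4, 17.9 and 29.5 CPM in microglia. The E18.5 values were 52.3, 63.5, 66.2 and 66.6 CPM in BAM, against 18, 23.4, 25.0 and 20.9 CPM in microglia. Every BAM library lay above every microglia library of its stage at all 6 stages. The means at E11.5, E14.5 and E16.5 were 39.4 ± 2.81, 51.5 ± 9.76 and 72.6 ± 8.06 CPM in BAM (SD, n = 3 each), against 12.8 ± 1.13 (n = 3), 22 ± 5.55 (n = 2) and 26.2 ± 2.88 CPM (n = 3) in microglia. The log2 fold change was 1.43 ± 0.28 at E10.5, 1.60 ± 0.32 at E11.5, 1.36 ± 0.32 at E12.5, 1.30 ± 0.37 at E14.5, 1.52 ± 0.32 at E16.5 and 1.41 ± 0.28 at E18.5, with adjusted p-values of 0.000218 to 0.0198. The E10.5 call was lost when its groups were fitted alone (adjusted p = 0.124), and the E14.5 call without BAM replicate 1 or either microglia library (0.0643 to 0.422).

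Nlrc4, the sensor partner of the NAIP proteins, parted with stage: the mean level was highest in BAM and lowest in microglia at E18.5. At E10.5 the libraries had 19.2, 14, 9.72 and 8.74 CPM in BAM, against 11.8, 5.32, 7.04 and 12.2 CPM in microglia. At E11.5 they had 24.3, 41.1 and 22.3 CPM in BAM, against 12.1 to 19.7 CPM in microglia (mean 14.8 ± 4.31, SD, n = 3). At E12.5 they had 36.9, 42.3 and 38.2 CPM in BAM, against 9, 7.16 and 11.4 CPM in microglia. The groups overlapped at E10.5 alone. At E14.5 Nlrc4 had 48.7, 50.2 and 52.1 CPM in BAM, against 5.33 and 13.7 CPM in microglia. At E16.5 it had 59.7, 50.9 and 56.2 CPM in BAM, against 3.38, 3.20 and 1.88 CPM in microglia. At E18.5 it had 62.5, 49.6, 68.3 and 56.5 CPM in BAM, against 0.255, 0.935, 3.29 and 1.23 CPM in microglia. The microglia library with the most Nlrc4 at E18.5 was replicate 3. The log2 fold change was 0.50 ± 0.36 at E10.5 (adjusted p = 0.564), 0.96 ± 0.41 at E11.5 (0.189), 2.11 ± 0.43 at E12.5 (0.000661), 2.47 ± 0.51 at E14.5 (0.00089), 4.36 ± 0.48 at E16.5 (1.47e-08) and 5.29 ± 0.45 at E18.5 (2.31e-11). Without replicate 3 in both E18.5 groups the E18.5 value was 6.10 (adjusted p = 1.52e-11). The E14.5 call was lost without microglia replicate 1 (1.90, adjusted p = 0.103).

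Naip5, the partner that recognises flagellin, was lower in BAM than in microglia and so ran opposite to Nlrc4. It had 22.7, 24.4, 12.4 and 15.6 CPM in BAM at E10.5, against 21.3, 30.1, 21.6 and 20.3 CPM in microglia. At E12.5 it had 26.5, 26.0 and 20.5 CPM in BAM, against 76.6, 82.0 and 78.2 CPM in microglia. Its E18.5 values were 37.6, 22.9, 41.5 and 28.9 CPM in BAM, against 81.1, 59.0, 58.3 and 75.9 CPM in microglia. The groups overlapped at E10.5 and were separate at the other 5 stages. The difference was -0.32 ± 0.20 at E10.5 (adjusted p = 0.449), -1.36 ± 0.23 at E11.5 (7.47e-05), -1.69 ± 0.23 at E12.5 (1.29e-06), -1.19 ± 0.25 at E14.5 (0.00103), -1.72 ± 0.23 at E16.5 (5.58e-07) and -1.17 ± 0.20 at E18.5 (2.25e-05). Naip5 has near-identical copies in the mouse, so its reads may be shared with them and its level is uncertain. Naip2 and Naip6, of the same gene family, were also lower in BAM (mean over stages -1.19 ± 0.08 and -1.12 ± 0.11, adjusted p = 1.17e-14 and 3.19e-10).

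Nlrp3, the sensor of cell damage, was lower in BAM by a smaller margin. It had 8.48, 17.2 and 12.4 CPM in BAM at E11.5, against 29.2, 30.7 and 40.1 CPM in microglia. Its E18.5 values were 31.2, 24.4, 22.6 and 19.3 CPM in BAM, against 38.5, 40.0, 58.3 and 44.1 CPM in microglia. The groups were separate at both stages and at 5 of the 6 in all, but the test passed at only 2. Groups this small can be separate by chance. The difference passed the test at E11.5 (-1.40 ± 0.32, adjusted p = 0.00333) and E18.5 (-0.99 ± 0.27, 0.00857), and lay between -0.43 and -0.97 at the other 4 stages (0.0926 to 0.476). At E12.5 it passed with adjacent library numbers as a block (-0.75, adjusted p = 0.046) and without microglia replicate 3 (0.038), and at E14.5 it passed without the filter (0.0499) and by DESeq2 (0.0414). It did not pass under 11 of 13 alternatives at E12.5 and 10 of 12 at E14.5. Without microglia E12.5 replicate 2 the E12.5 value was -0.45 (adjusted p = 0.611). Without replicate 3 in both E18.5 groups the E18.5 call was lost (-0.78, adjusted p = 0.115).

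The shared machinery had the smallest differences of the 10 over the mean of the stages. Pycard, the adaptor, had 52.9, 50.3, 43.7 and 49.5 CPM in BAM at E18.5, against 69.4, 69.1, 73.9 and 72.1 CPM in microglia, and the groups were separate there. Its difference was -0.64 ± 0.14 at E18.5 (adjusted p = 0.0011) and -0.47 ± 0.16 at E16.5 (0.0471), and -0.22 to -0.29 at the 4 earlier stages (0.285 to 0.656). The E16.5 call was lost under 9 of 13 alternatives (adjusted p up to 0.208), the block among them (0.103).

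Casp1, the protease, had 90.4, 86.6 and 99.4 CPM in BAM at E16.5, against 48.4, 50.7 and 42.6 CPM in microglia, with no overlap. That stage gave its call (1.02 ± 0.22, adjusted p = 0.000956), and E18.5 passed with adjacent library numbers as a block (0.38, adjusted p = 0.0454). At the other 5 stages its difference lay between -0.20 and 0.35 (0.26 to 0.911), and the ranges were separate at E18.5 alone among them.

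Gsdmd, the pore protein gene, was lower in BAM at 4 of 6 stages by the test, and its highest means were at E16.5, at 149 ± 13.3 CPM in BAM and 202 ± 33 CPM in microglia (SD, n = 3 each). Its mean was 34.7 ± 4.09 CPM in BAM and 48.1 ± 8.38 CPM in microglia at E10.5 (SD, n = 4 each), 79.2 ± 8.72 CPM in BAM and 114 ± 10.8 CPM in microglia at E12.5 (n = 3 each), and 133 ± 10.2 CPM in BAM and 171 ± 16.6 CPM in microglia at E18.5 (n = 4 each). BAM libraries lay below microglia libraries at 5 of 6 stages. The difference was -0.48 ± 0.13 at E10.5 (adjusted p = 0.0199), -0.59 ± 0.15 at E11.5 (0.00784), -0.51 ± 0.15 at E12.5 (0.0203), -0.30 ± 0.16 at E14.5 (0.381), -0.39 ± 0.15 at E16.5 (0.0711) and -0.46 ± 0.13 at E18.5 (0.00842). The E10.5 and E12.5 calls were each lost under 6 alternatives (adjusted p up to 0.191 and 0.155), the E11.5 call under 2 (up to 0.0638), and the E18.5 call without the R10 libraries of that stage (0.0654). With the block E14.5 passed (-0.47, adjusted p = 0.0348).

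Levels can be set between genes only per length, as TPM, in which each count is divided by the gene length in the count table before scaling. That length covers all exonic bases of a gene rather than those of a single transcript. The order of genes by TPM is therefore approximate. At E18.5 the most abundant of the 10 in BAM were Gsdmd (253 ± 19.1 TPM), Il18 (203 ± 17.3 TPM) and Casp1 (169 ± 24.6 TPM). In microglia at E18.5 they were Gsdmd (321 ± 34.5 TPM), Il1a (203 ± 120 TPM) and Casp1 (122 ± 4.41 TPM; SD, n = 4 in each group). The Il1a mean in microglia includes 378 TPM in replicate 3, against 117 to 178 TPM in the other 3 libraries. Nlrc4 had 52.1 ± 7.22 TPM in BAM and 1.21 ± 1.08 TPM in microglia, and Naip5 had 21.3 ± 5.53 TPM in BAM and 44.0 ± 8.77 TPM in microglia. Microglia replicate 3 had 2.74 TPM of Nlrc4, and the other 3 libraries had 0.229 to 1.08 TPM. Il1rn was the lowest of the set in BAM, at 1.51 ± 0.418 TPM, with 14.8 ± 2.20 TPM in microglia.

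**Figure D4:**
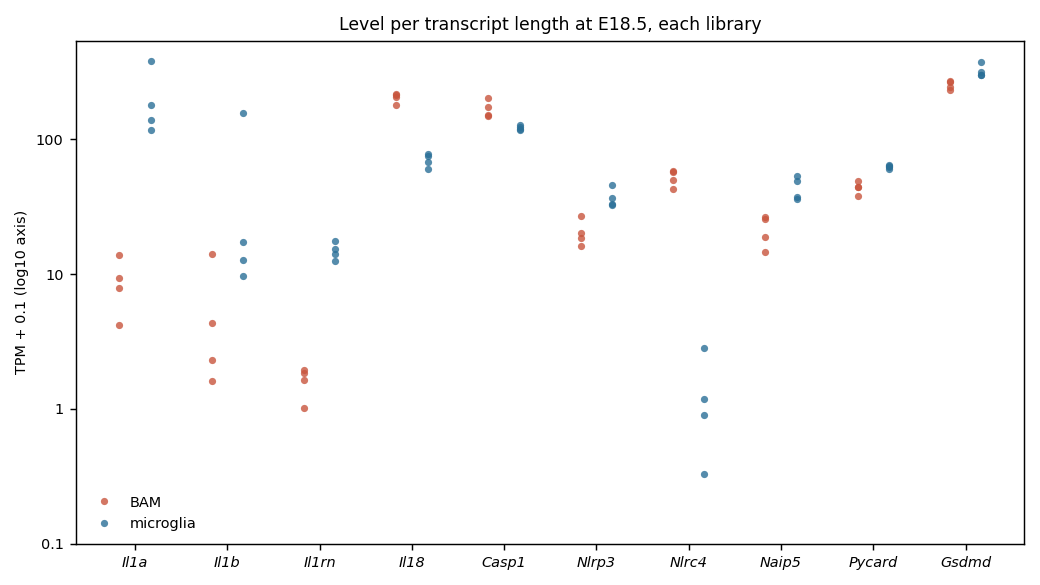
Level per gene length (all exonic bases) of the 10 genes at E18.5, as TPM + 0.1 on a log10 axis, where each point is 1 library and BAM stands left of microglia. Gsdmd, Il18 and Casp1 lie highest in BAM, and Nlrc4 lies at 52.1 TPM on average in BAM and 1.21 TPM in microglia.

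When the 12 groups were ordered by their mean CPM, most neighbours in the order overlapped. For Il1a the range of microglia E12.5 lay above that of microglia E16.5, microglia E14.5 above microglia E11.5, and microglia E11.5 above BAM E18.5, and the other 8 of 11 neighbouring pairs overlapped. For Il1b 9 of 11 pairs overlapped, with breaks between microglia E10.5 and microglia E16.5 and between microglia E14.5 and BAM E10.5. The Il18 order of means put all 6 BAM groups above all 6 microglia groups, with no break between the populations. BAM E10.5 (15.4 to 38.7 CPM) overlapped microglia E16.5 (23.3 to 29 CPM). Its breaks were between BAM E16.5 and BAM E18.5, between BAM E14.5 and BAM E11.5, and between microglia E18.5 and microglia E11.5. The Nlrc4 order had breaks between BAM E14.5 and BAM E12.5, between BAM E11.5 and microglia E11.5, and between microglia E10.5 and microglia E16.5.

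Changes between neighbouring early stages were tested within each population, and E10.5 and E11.5 are both of library series R10. In BAM, 1 of the 10 genes was called at E11.5 against E10.5, Gsdmd (0.85 ± 0.14, adjusted p = 0.000121), beside 4.42% of all genes. Nlrc4 in BAM was 2.29-fold higher at E11.5 and did not pass (adjusted p = 0.0664); it passed without the filter, by DESeq2, with counts halved and without BAM E10.5 replicate 1 (0.0185 to 0.0395). In microglia 3 were called at E11.5 against E10.5, all higher at E11.5, beside 8.26% of all genes. They were Il1a (3.48 ± 0.57, adjusted p = 6.67e-05), Naip5 (1.16 ± 0.21, 0.000232) and Gsdmd (0.96 ± 0.14, 6.00e-06).

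From E12.5 to E18.5, within series R8 but for 1 E18.5 library a population, Gsdmd was higher at E18.5 in both populations. In BAM, 2 were called at E18.5 against E12.5, both higher at E18.5, beside 10.6% of all genes: Il1a (3.75 ± 0.78, adjusted p = 0.000975) and Gsdmd (0.80 ± 0.14, 9.53e-05). The BAM E12.5 libraries held only 5 to 11 counts of Il1a. Summed microglia markers were 490 to 580 CPM at E12.5 and 1196 to 1573 CPM at E18.5 in BAM. In microglia they were 4406 to 7792 CPM and 13235 to 15091 CPM. The part of microglia transcripts in the Il1a changes in BAM was not tested. In microglia, 3 were called at E18.5 against E12.5 beside 6.74% of all genes: Nlrc4 was lower at E18.5 (-2.54 ± 0.44, adjusted p = 0.000141, and -3.41, 3.82e-06, without replicate 3 in both E18.5 groups), and Gsdmd (0.75 ± 0.14, 0.000353) and Pycard (0.50 ± 0.15, 0.0424) were higher. The Pycard call was lost under 12 of 15 alternatives (adjusted p up to 0.297). Without replicate 3 in both E18.5 groups the Pycard value was 0.47 (adjusted p = 0.0949). Il1b in microglia was -1.47 at E18.5 against E12.5 (adjusted p = 0.289), and -3.47 (0.00123) without replicate 3 in both E18.5 groups. Il1b in BAM was 3.07 (0.056), passed under 6 of 15 alternatives, and was 2.01 (0.141) without replicate 3 in both E18.5 groups.

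A test of any change over E12.5, E14.5, E16.5 and E18.5 called 3 genes in BAM, beside 8.73% of all genes, and 4 in microglia, beside 7.14%. In BAM they were Il1a (adjusted p = 0.00513), Il1b (0.0247) and Gsdmd (1.79e-05). In microglia they were Il1b (0.0156), Nlrc4 (0.000194), Naip5 (0.0318) and Gsdmd (5.35e-05). The Il1b call in BAM was lost under 6 alternatives (adjusted p = 0.0536 to 0.354, the highest without BAM E18.5 replicate 3). Leaving out replicate 3 in both E18.5 groups was among them (0.134). The Il1b call in microglia was lost without E12.5 replicate 2 (0.123). The Naip5 call was lost under 8 alternatives, with adjusted p up to 0.289 without microglia E14.5 replicate 1.

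Whether the BAM minus microglia difference itself changed with stage was tested as an interaction. At E11.5 against E10.5, none of the 10 passed in edgeR, beside 0.734% of all genes; 3 had an unadjusted p under 0.05, and DESeq2 called 2. Il1a was nearest in edgeR, at -3.42 ± 0.87 (adjusted p = 0.0533), and it passed under 8 of 21 alternatives. At E12.5 against E10.5, 3 of the 10 passed, beside 1.94% of all genes, each with a more negative difference at E12.5. They were Il1a (-6.52 ± 0.99, adjusted p = 6.60e-05), Il1b (-5.03 ± 1.31, 0.0295) and Naip5 (-1.37 ± 0.30, 0.00659). The Il1b interaction was lost without any of 5 libraries, and microglia E12.5 replicate 2 gave the highest adjusted p (0.113). At E18.5 against E12.5, 1 of the 10 passed, beside 2.19% of all genes: the Nlrc4 difference was more positive at E18.5 by 3.18 ± 0.59 (adjusted p = 0.00119), and by 3.99 (5.29e-05) without replicate 3 in both E18.5 groups. The Il1a and Il1b differences were less negative at E18.5 by 3.29 ± 0.95 and 4.54 ± 1.31 and did not pass (adjusted p = 0.0581 and 0.0579); without replicate 3 in both E18.5 groups they were 3.53 and 5.48 and passed (0.0487 and 0.003).

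The likeness of patterns over the 12 groups is given as Pearson's r of group means in log2 CPM, as a description of points that share libraries and depth. The genes most like Il1a were Itgax (0.988), Mgat5 (0.985) and Olfml3 (0.982), the last a microglia marker. Those most like Il1b were Tagap (0.976), Rgs1 (0.976) and Pecam1 (0.971), and those most like Nlrc4 were Plekhg3 (0.969), Clec10a (0.967) and Cd36 (0.964). For Il18 they were Lrrc4 (0.972), Zbtb46 (0.971) and Slc9a9 (0.971), and for Il1rn they were Arel1 (0.976), Klhl25 (0.975) and Golim4 (0.954). Naip5 was most like Plcb2 (0.978), Nlrp3 most like Cttnbp2nl (0.982), Pycard most like Btg1 (0.954), Gsdmd most like Bcl2l1 (0.982) and Casp1 most like Slc10a7 (0.906). Within the set, Il1a ran with Naip5 (r = 0.936), Nlrp3 (0.894) and Il1rn (0.883). Il1b ran opposite to Il18 (-0.821) and Nlrc4 opposite to Pycard (-0.881), each over n = 12 groups.

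The other ligands of the family were barely detected. Of 6 genes, Il33 alone was tested and was not called, and the 6 together summed to at most 1.45 CPM in any BAM library and 1.49 CPM in any microglia library. Of 11 receptor and binding-protein genes, 1 was higher and 4 lower in BAM over the mean of the stages, with a list median of 0.09 against -0.02 over all genes. Beside this list and each list below, 28.2% of all tested genes were called in that comparison (3030 higher and 3199 lower in BAM). Il18rap, the signalling chain of the interleukin-18 receptor, was lower in BAM (2.59 CPM median in BAM and 26.6 CPM in microglia; log2 -3.07 ± 0.21, adjusted p = 2.64e-14). Il1rl2, the interleukin-36 receptor, was also lower in BAM (-1.10 ± 0.09, adjusted p = 1.13e-12), as was the inhibitory receptor Sigirr (-0.89 ± 0.15, 1.19e-05). The accessory chain Il1rap was higher in BAM (0.80 ± 0.13, 5.06e-06). The fourth lower gene was Il1r1, the receptor of both agonists, named after its values were seen (-2.22 ± 0.57, 0.00243).

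Genes of signalling below the receptor gave small differences. Of 11, 2 were higher and 3 lower in BAM, with a median of -0.05, beside 28.2% of all tested genes called. Irak4, the first kinase of the chain, was at 0.27 ± 0.05 (adjusted p = 0.000138), while Irak2 was at -0.53 ± 0.08 (1.35e-06), Irak1 at -0.36 ± 0.09 (0.00166) and Map3k7 at -0.34 ± 0.09 (0.00442). The other higher gene, Tollip, was named after its values were seen (0.16 ± 0.06, 0.0385).

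Of 15 other inflammasome sensor and regulator genes, 12 were tested, with 2 higher and 7 lower in BAM and a median of -0.56. The DNA sensor Aim2 was lower in BAM (55.3 CPM median in BAM and 73.2 CPM in microglia; -0.50 ± 0.06, adjusted p = 1.28e-08). Txnip, which binds NLRP3, was higher in BAM (0.75 ± 0.07, 3.34e-11), and the other higher gene, the ATP receptor P2rx7, was named after its values were seen (0.54 ± 0.07, 1.35e-07). Of 5 other caspase and pore genes, 2 were higher in BAM and none lower. They were Ninj1, which ruptures the membrane of dying cells (1.06 ± 0.10, 6.27e-11), and Casp8 (0.20 ± 0.06, 0.0185). Gsdme and Casp4 were at 0.10 ± 0.09 and -0.08 ± 0.15 and were not called (0.541 and 0.86).

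Of 10 NF-kappaB subunit and feedback genes, 3 were higher and 5 lower in BAM, with a median of -0.10. Rel (-0.84 ± 0.08, adjusted p = 1.35e-10) and the feedback genes Tnfaip3 (-1.49 ± 0.16, 9.81e-10) and Nfkbia (-0.81 ± 0.20, 0.00155) were lower, and Relb was higher (0.54 ± 0.11, 0.000148). Of 8 other NF-kappaB-driven cytokine genes, 3 were higher and 5 lower. The chemokine genes Ccl4 (-2.51 ± 0.19, 2.34e-13) and Ccl3 (-1.26 ± 0.15, 2.37e-08) were lower in BAM, as was Tnf (-1.66 ± 0.23, 4.77e-07). Cxcl1 was higher in BAM, where it reached 10.8 CPM, and at most 0.51 CPM in microglia, with no counts in some microglia groups and therefore no fold (adjusted p = 8.69e-05). The other higher genes, Cxcl2 (adjusted p = 0.00674) and Il6 (0.0059, with no finite SE), were named after their values were seen.

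Immediate early and heat shock genes, which respond to cell handling, were in part lower in BAM, as Il1b was. Of 16, 2 were higher and 8 lower in BAM, with a median of -0.56. Egr1 (-1.70 ± 0.14, adjusted p = 1.44e-12), Egr2 (-2.04 ± 0.17, 4.09e-12), Junb (-2.03 ± 0.17, 5.13e-12) and Btg2 (-1.46 ± 0.13, 6.31e-12) were lower. The higher pair, Hspa1a (1.43 ± 0.28, 0.000119) and Hspa1b (1.40 ± 0.32, 0.000658), was named after its values were seen. The list summed to 4042 to 10576 CPM in BAM and 5706 to 14036 CPM in microglia, and its part in the Il1b difference was not tested.

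Markers of other cell types were counted over the mean of the stages as well, where 28.2% of all tested genes were called. Of 8 monocyte markers, 2 were lower in BAM and none higher: Ccr2, the receptor of recruited monocytes, had 0.0884 to 5.82 CPM in BAM and 4.56 to 84.5 CPM in microglia, and Plac8 had 0.0948 to 12.1 CPM in BAM and 0.37 to 35.7 CPM in microglia. The 8 summed to 18.3 to 193 CPM in BAM and 43.0 to 181 CPM in microglia. Of 10 neutrophil markers, 6 were tested, with Ltf higher and Csf3r lower in BAM. Ltf was near the floor, at a median of 0.763 CPM in BAM and 0 CPM in microglia, with no counts in the lowest microglia group. Csf3r made up most of a sum of 38.9 to 140 CPM in BAM and 181 to 367 CPM in microglia. Ly6g was at 0 in all BAM libraries and Retnlg in all microglia libraries. None of 6 tested mast cell markers passed (sums up to 43.3 CPM in BAM and 28.8 CPM in microglia). Of 3 tested lymphoid markers, Il7r and Cd79a were lower in BAM (sums up to 1.26 CPM in BAM and 15.8 CPM in microglia), with Cd3e, Ncr1 and Rag1 at 0 in both. Cd79a was near the floor, at most 0.619 CPM in BAM and 1.11 CPM in microglia. Of 5 erythroid markers 4 were lower in BAM (26.3 to 264 CPM in BAM and 28.9 to 569 CPM in microglia). Of 5 endothelial markers Pecam1 alone was lower (19.9 to 268 CPM in BAM and 58.9 to 166 CPM in microglia), and of 6 neural markers Nes alone was lower (53.5 to 757 CPM in BAM and 92.6 to 910 CPM in microglia). The part of such cells in the levels of the 10 genes was not tested.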

How the data were processed

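RNA from sorted embryonic BAM and microglia was made into modified SMART-seq2 libraries from 2 ng of total RNA and sequenced with paired ends, per the labels' protocols. The authors aligned reads with STAR to GRCm38 and counted them with featureCounts, per the submitters' processing notes; the sources used here give no version, annotation release or strand setting. The deposited table holds raw read counts per gene, with a gene length that is used here for TPM. Counts of 2 outnumbered counts of 1 (49977 against 21280 cells of the table), as when both reads of a pair are counted. The sources are silent on this point. Limits from counts cover counting error only, and they are too low if both reads of a pair were counted.

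Groups came from the labelled cell type and stage. CPM used library totals. The deposited counts were tested in edgeR 4.0.16 (R 4.3.3) with TMM factors, filterByExpr (22061 genes), 1 fit of 12 groups with 27 residual degrees of freedom, quasi-likelihood tests and Benjamini-Hochberg adjustment over all tested genes, with calls at 0.05. The SE is the absolute log2 fold change from the unshrunk coefficients of the fit, divided by the root of F. The fit was tested on simulated data. Alternatives were RLE factors, no filter, DESeq2 1.42.0, compared groups alone, adjacent library numbers as a block, series as a covariate, R10 E18.5 libraries left out, counts halved and each library left out; leaving out both E18.5 replicates 3, and the interaction of E11.5 against E10.5, were chosen after seeing the data.

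The 10 genes and all lists were chosen with earlier results of these data known. All 10 genes are named, up to 4 of each list by p, and the 3 genes of highest r with average log2 CPM of at least 4 among 7711. Promoter windows came from the RefSeq table of GRCm38.p6; no protein sequence was used here. Symbols came from the reference tables, and 53274 of 53379 identifiers had one.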

Additional observations from a re-analysis of the deposited data

Results flagged for a closer look

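Single libraries stood far from the other 3 of their group in 4 of 40 tested sets of 4 libraries, where chance alone gives about 1 in 20. Il1b was at 93.5 CPM in microglia E18.5 replicate 3, against 5.52 to 9.77 CPM in the others, in the library that also had the highest sums of cytokine and immediate early genes. Naip5 was at 30.1 CPM in microglia E10.5 replicate 2, against 20.3 to 21.6 CPM in the others. Gsdmd was at 40.8 CPM in BAM E10.5 replicate 2, against 31.9 to 33.2 CPM, and at 196 CPM in microglia E18.5 replicate 4, against 161 to 166 CPM.

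Change of the BAM minus microglia difference with stage was tested as an interaction (edgeR, adjusted over all genes). At E12.5 against E10.5, 3 of the 10 genes passed, beside 1.94% of all genes. The difference changed by -6.52 for Il1a (adjusted p = 6.60e-05), by -5.03 for Il1b (0.0295) and by -1.37 for Naip5 (0.00659). The Il1b call was lost under 5 of 21 alternatives (adjusted p up to 0.113). At E18.5 against E12.5, 1 of the 10 passed, beside 2.19% of all genes, with a change of 3.18 for Nlrc4 (0.00119). At E11.5 against E10.5 none passed, beside 0.734%.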

How the results depend on the processing

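Over 103 comparisons of single genes, 1774 of 1899 recomputed values kept their direction and their side of the threshold, 71 lost the call, 53 gained it and 1 changed sign. The sign change was of Casp1 at E11.5, which passed in no setting: without microglia E11.5 replicate 3 it was -0.064, and over all its settings it ran from -0.064 to 0.395. No called value changed sign. The number of the 10 genes called at E10.5 was 3, and 1 with the compared groups alone and 1 to 3 with a library left out. At E14.5 it was 6, and 3 to 6 with a library left out, the 3 without microglia replicate 1. For BAM at E11.5 against E10.5 it was 1, and 2 without the filter, by DESeq2 and with counts halved, and 1 to 2 with a library left out. For the interaction of E18.5 against E12.5 it was 1, and 3 without the filter, by DESeq2, with compared groups alone, with adjacent library numbers as a replicate block and without both E18.5 replicates 3. It was 2 with the series as a covariate, and 1 to 3 with a library left out. For the interaction of E11.5 against E10.5 it was 0, and 1 without the filter, with the block, with the series as a covariate and with counts halved, 2 by DESeq2, and 0 to 2 with a library left out. The causes were not tested. With the block, calls were gained by Casp1 at E18.5 (0.38, adjusted p = 0.0454), Gsdmd at E14.5 (-0.47, 0.0348), Nlrp3 at E12.5 (-0.75, 0.046), Il1a and Il1b in the interaction of E18.5 against E12.5 (0.04 and 0.000107) and Naip5 in that of E11.5 against E10.5 (-0.99, 0.0352), and lost by Il1rn at E14.5 (0.108) and Pycard at E16.5 (0.103); adjacent numbers are not stated to pair samples. Single libraries moved called BAM against microglia values by over 1.5 times in further cases. Without BAM E10.5 replicate 1, Il1b at E10.5 was -3.75. Without BAM E12.5 replicate 2, Il1b at E12.5 was -8.81. Without BAM E14.5 replicate 2, Il1rn at E14.5 was -3.72, Il1b over the mean of the stages was -5.54, and Il1b at E14.5 had no counts left in BAM. Without microglia E14.5 replicate 2, Nlrc4 at E14.5 was 3.27. Without BAM E16.5 replicate 1, Il1a at E16.5 was -5.44. Without BAM E18.5 replicate 3, Il1b at E18.5 was -4.40, and without microglia E18.5 replicate 3, Nlrc4 at E18.5 was 6.17. On TMM-scaled libraries 11 of 120 group means moved by more than their SD. Groups of 2 to 4 libraries and BAM levels of Il1b near the limit of 3 counts limit the precision of single stages, and E12.5 against E10.5 crosses library series within each population.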
